A study of Mus musculus with 16 samples.

Results

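LSKs, bone marrow cells that lack lineage markers (Lin-) and carry Sca-1 and c-Kit, hold blood stem cells and multipotent progenitors. They were compared by low-input RNA-seq between mice lacking the upstream regulatory element (URE) of *Spi1* and wild-type (WT) mice. Of the 16 libraries of the series, 8 belong to this comparison, chosen by the cell type and genotype on their labels: 4 URE and 4 WT libraries, each from 1 mouse. The URE group carries the deletion on both alleles (written UREd/d in the series) and the WT group carries neither, and no treatment is named for either group. Per the methods of the study, the mice were littermates on C57BL/6, between 8 and 12 weeks old, and the LSKs were sorted after bead enrichment for c-Kit with a lineage stain that includes CD45R, CD3, CD4, CD8, Gr1 and Ter119. The deletion is present in every cell of the animal, so that the LSKs developed in a marrow whose other cells also lacked the element. The remaining 8 libraries, from granulocyte-monocyte progenitors, were not used here.

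*Spi1* encodes PU.1, an ETS family transcription factor that blood stem cells and progenitors need to make monocytes, macrophages and B cells. PU.1 binds purine-rich sites around a GGAA core, works beside RUNX, C/EBP and IRF proteins, and is a known activator of receptor genes for growth factors of the myeloid lineage. The URE is a distal enhancer upstream of the gene, and its loss lowers PU.1 without removing the coding sequence. The question of the comparison is which other genes differ in LSKs that have little PU.1.

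Total counts lay between 20340359 and 29128858 per URE library and between 21339823 and 26963636 per WT library. The first principal component, with 36.6% of the variance of log2 CPM (counts scaled to library size), separated the genotypes, and the second, with 30%, set replicates 1 and 4 apart from replicates 2 and 3 within each genotype. Genes of the sex chromosomes differed within the groups and were not balanced between them. *Xist*, the RNA of the inactive X chromosome, stood at 2.03, 121, 261 and 131 CPM in URE replicates 1 to 4 and at 0.0738, 2.93, 0.781 and 114 CPM in WT replicates 1 to 4, and the Y-linked *Ddx3y* was at 0 in the libraries high in *Xist*. Replicate pairs 1 and 4 were therefore alike in these genes and pairs 2 and 3 were not. In pairs 2 and 3 *Xist* was high in URE and low in WT, so that sex and genotype cannot be told apart within them. The overall counts and those of several lists are also given for pairs 1 and 4 alone. Of the genes that define the sort, *Kit* was not called (log2 fold change 0.11, SE 0.19, adjusted p = 0.791), while *Ly6a*, which encodes Sca-1, was between 39.1 and 125 CPM in URE and between 86.3 and 136 CPM in WT LSKs (log2 fold change -0.72, SE 0.19, adjusted p = 0.0575). Among markers of mature cells that the sort should remove, *Cd3e* had 0 counts in every URE library and 1 count in the WT group, and *Pax5* had 0 counts in every URE library and at most 6 in any WT library. Other genes of mature cells were present. The summed level of the 8 plasma cell genes tested ran from 304 to 2028 CPM in URE and from 546 to 1018 CPM in WT LSKs. The globin gene *Hbb-bs* was at 37.6 CPM in URE replicate 3 and at most 6.57 CPM in the other URE libraries. Whether such reads came from mature cells left by the sort was not tested.

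*Spi1* itself was read first. It stood at 3.15, 4.97, 4.12 and 1.26 CPM in URE replicates 1 to 4, and at 147, 77.8, 158 and 185 CPM in WT replicates 1 to 4. The groups did not overlap, the URE mean was 2.38% of the WT mean, and the log2 fold change was -5.40 (SE 0.48, adjusted p = 0.000622). An exact two-sided permutation test over all 8 libraries, which leaves out the pairing, gave p = 0.0286, the smallest value that 4 against 4 libraries allow. Exchanging genotypes within the 4 replicate pairs, a test added after the data were seen, gave an exact p = 0.125, the smallest value that 4 pairs allow. Here and below, fold changes are URE over WT from edgeR's quasi-likelihood test with the replicate number in the model, and adjusted p values are Benjamini-Hochberg values over all 15154 genes tested. Levels are CPM, which are not divided by gene length, so that they compare libraries and not genes. The gene lies on chromosome 2 (GRCm38, chr2:91082390-91115756, plus strand). Of 77 genes tested within 10 Mb on either side, 2 rose (*Rapsn* and *Calcrl*) and 2 fell (*Ube2l6* and *Smtnl1*), where 9.46% of all genes tested were called in either direction. *Calcrl* was not called without the replicate number in the model (adjusted p = 0.43 by edgeR). *Rapsn*, which encodes the acetylcholine receptor anchor of muscle and lies 36.7 kb upstream of *Spi1*, rose from 3.75 CPM ± 0.975 to 20.8 CPM ± 3.97 (SD, n = 4; log2 fold change 2.49, SE 0.22, adjusted p = 0.000561). *Slc39a13* and *Psmc3* lie between both genes and had log2 fold changes of 0.31 (adjusted p = 0.427) and 0.00 (adjusted p = 0.993). *Gm13778*, which overlaps the end of *Rapsn* and reaches towards *Spi1*, had 1.13 (SE 0.55, adjusted p = 0.279) with URE above WT in 3 of 4 pairs.

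Genes count as called where the adjusted p is below 0.05 and the fold change exceeds 1.5. By this rule 581 genes were overexpressed in URE LSKs (3.83% of the genes tested) and 852 were underexpressed (5.62%), 1433 in all (9.46%). The count of each gene list that follows stands against these shares. The median log2 fold change of all genes tested was -0.02. The groups did not overlap in 1167 of the called genes, and 1432 of them moved the same way in all 4 replicate pairs. Without the replicate number in the model the counts were 360 and 570. With replicate pairs 1 and 4 alone they were 476 and 796, and with pairs 2 and 3 alone 132 and 207. Leaving out 1 library lowered them most for URE replicate 1 (288 and 508), WT replicate 1 (311 and 496), URE replicate 4 (341 and 510) and WT replicate 4 (355 and 499). With the replicate number in the model, the library left without a partner adds nothing to the genotype difference. Here and below, leaving out either library of a pair is therefore nearly the same as leaving out the pair, and such fits are not independent checks. Over all genes tested, 5.13% had every URE library above every WT library and 7.46% had every URE library below. RNA from sorted cells is a bulk measurement, in which fewer cells of a type and less RNA per cell cannot be told apart.

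**Figure D1:**
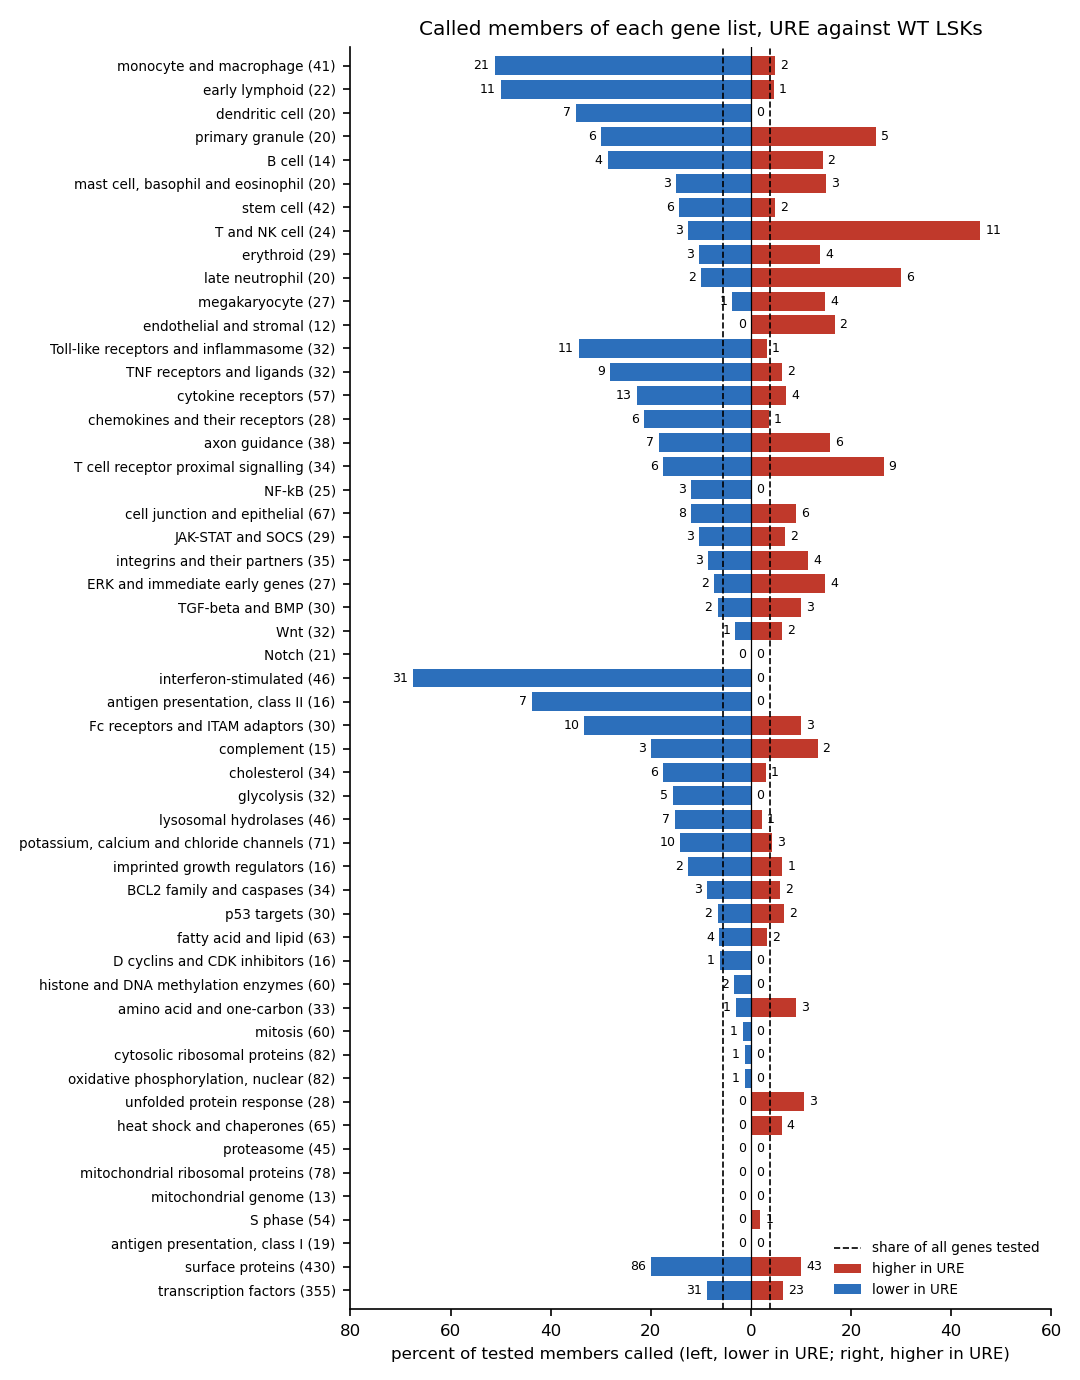
Percent of the tested members of each gene list called lower (left, blue) or higher (right, red) in URE LSKs, with the number called beside each bar, the number tested in parentheses and dashed lines at the share of all genes tested (5.62% lower, 3.83% higher). The interferon-stimulated, monocyte and macrophage and early lymphoid lists reach furthest to the left, and the T and NK cell list reaches furthest to the right.

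The largest rises among genes of at least 3 log2 CPM came from unlike families. *Prkcz*, an atypical protein kinase C of the cell polarity complex, stood at 81.5, 44.3, 36.0 and 58.5 CPM in URE replicates 1 to 4 and between 0.27 and 1.76 CPM in WT LSKs. *Apob*, the apolipoprotein of liver-secreted lipoproteins, was between 23.9 and 34.6 CPM against 0.0375 to 1.31 CPM (log2 fold change 6.13, SE 0.68, adjusted p = 0.00156). *Gzmb*, a protease of cytotoxic granules, was between 28.1 and 47.9 CPM against 0.113 to 1.53 CPM (log2 fold change 6.12, SE 0.50, adjusted p = 0.000452). Genes of cell adhesion and of neurons were among the others, with fold changes of 5.83 for the desmosomal cadherin *Dsc2*, 4.85 for the AMPA receptor subunit *Gria2* and 4.35 for the tight junction scaffold *Tjp1* on the log2 scale. *Pgr*, the progesterone receptor, rose by 4.81 and its highest WT library stood at 7.56 CPM. The orphan receptor *Gpr141* showed little spread, at 24.7, 27.3, 25.9 and 23.1 CPM in URE against 0.774, 1.05, 0.689 and 0.405 CPM in WT replicates 1 to 4 (log2 fold change 5.14, SE 0.27). Also in this group were the lymphocyte adaptors *Skap1* (4.72) and *Trat1* (4.31), the inhibitory receptor *Ctla4* (4.68), the RNA-binding protein *Rbm45* (4.56), the heparan sulfate sulfatase *Sulf2* (4.45) and the actin-severing protein *Scin* (4.26). The copy of *Pakap* annotated as ENSMUSG00000038729 had the highest value (7.38) but shares 6891 exonic bases with a second gene of that name, and its level is uncertain.

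The largest falls also came from unlike families. *Cd300a*, an inhibitory receptor of myeloid cells, stood at 1.04, 1.37, 0.0473 and 1.44 CPM in URE replicates 1 to 4 and at 76.0, 62.6, 61.9 and 50.8 CPM in WT replicates 1 to 4 (log2 fold change -6.11, SE 0.56, adjusted p = 0.000673). *Nfam1*, an ITAM-bearing receptor that activates NFAT, fell from 115 CPM ± 49.0 to 2.37 CPM ± 0.795 (SD, n = 4; log2 fold change -5.53). *Itgam*, the integrin chain CD11b, had a log2 fold change of -5.60. Some are known from other tissues: the germ cell helicase *Ddx4* (-6.29, from 44.6 to 0.637 CPM on average), the ephrin receptor *Epha7* (-6.38), the semaphorin *Sema3d* (-5.96) and the monocarboxylate transporter *Slc16a11* (-5.57). The lectin *Clec2i* (-5.90) and the interleukin 12 receptor chain *Il12rb2* (-5.91) were also in this group, as were the chemokine *Ccl3*, the ribonuclease *Rnase6*, *Ms4a6c* and *Spi1* itself. The processed pseudogene *AC174780.1* had 3 counts in the whole URE group and 1813 in the WT group, a ratio of 573 with a counting interval from 196 to 2780, and the lincRNA *Gm10384* also belongs here.

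The monocyte and macrophage list held 41 tested genes, of which 21 fell and 2 rose, with a median log2 fold change of -1.56. With replicate pairs 1 and 4 alone 23 fell and 2 rose, with pairs 2 and 3 alone 12 fell and 0 rose, and without replicate 1, 2 or 4 of either genotype 17 to 19 fell and 1 rose. The summed level of the list was 1176, 1368, 1329 and 1089 CPM in URE replicates 1 to 4 and between 1994 and 2456 CPM in WT LSKs, without overlap. *Csf1r*, the receptor for the macrophage growth factor CSF1, stood at 4.88, 2.93, 8.14 and 3.73 CPM in URE and at 36.5, 24.8, 9.97 and 20.4 CPM in WT replicates 1 to 4 (log2 fold change -2.22, SE 0.47, adjusted p = 0.0231). WT replicate 3 was close to URE replicate 3 for this gene. *Irf8*, the transcription factor that directs progenitors to monocytes and dendritic cells, was at 4.84, 10.1, 4.12 and 4.89 CPM against 69.9, 60.3, 34.7 and 53.9 CPM (log2 fold change -3.23, SE 0.24, adjusted p = 0.000355). *Ctss*, a protease that trims antigens in endosomes, fell from between 67.2 and 109 CPM to between 4.97 and 10.8 CPM, and *Tyrobp*, the adaptor DAP12 of activating receptors, fell from 28.4 to 3.45 CPM on average.

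Further members that fell were the lipopolysaccharide co-receptor *Cd14* (-4.53), *Ms4a6b* (-4.76), the fractalkine receptor *Cx3cr1* (-3.98), *Ly86* (-3.42), the coagulation factor *F13a1* (-2.92), the pore-forming *Mpeg1* (-2.75), the lysosomal *Cd68* (-2.0) and lysozyme *Lyz2* (-1.62). The chemokine receptor *Ccr2*, which lets monocytes leave the marrow, did not pass the test, with a log2 fold change of -1.48 (SE 0.42, adjusted p = 0.0687) and URE replicate 3 at 7.38 CPM within the WT range. The 2 rises were *Slpi*, a protease inhibitor of phagocytes and epithelia, from 4.92 to 14.9 CPM (log2 fold change 1.61), and the inhibitory receptor *Lilrb4a*, from 1.04 to 3.69 CPM (2.24), which was not called by edgeR without the replicate number in the model (adjusted p = 0.174). *Lilrb4a* shares 1846 exonic bases with *Gm49339*, and the libraries carry no strand.

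The promoter windows of RefSeq (GRCm38.p6, from 250 bases before to 50 bases after each start) were searched on both strands for the PU.1 motif GAGGAAGT. Of the genes tested 10686 had a window. The motif stood in 3.27% of the 13614 windows of all genes tested, in 5.97% of those of underexpressed genes, in 3.24% of those of overexpressed genes and in 3.08% of the rest. Of 18 promoters of underexpressed genes on the monocyte and macrophage list, 4 held it (22.2%). The share over all tested members of that list, called or not, was not computed, so that the list and the fall cannot be told apart here. The RUNX motif TGTGGT stood in 13.3% of all promoters, 16.2% of those of underexpressed and 15.1% of those of overexpressed genes, and in 5 of the same 18 promoters (27.8%). These are matches of letters, not measured sites. The stretches around the PU.1 match are shown for 3 underexpressed genes of different roles, with the motif in capitals, each read 5′ to 3′ on the strand of its gene: the gluconeogenic enzyme gene *Fbp1* (chr13:62888300-62888387, minus strand, motif 65 bases before the start), the neutrophil protease gene *Prtn3* (chr10:79879532-79879619, plus strand, 95 bases before it) and the gene of the inhibitory myeloid receptor *Pirb* (chr7:3720455-3720542, minus strand, 120 bases before it).
Fbp1: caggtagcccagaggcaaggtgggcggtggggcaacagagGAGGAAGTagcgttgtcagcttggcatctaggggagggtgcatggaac
Prtn3: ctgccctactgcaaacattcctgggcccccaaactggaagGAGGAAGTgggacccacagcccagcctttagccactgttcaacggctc
Pirb: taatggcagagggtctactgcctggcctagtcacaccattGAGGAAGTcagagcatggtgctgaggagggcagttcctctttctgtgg
*Fbp1* stood at 1.73, 1.93, 2.98 and 2.38 CPM in URE and at 34.7, 43.4, 52.7 and 26.5 CPM in WT replicates 1 to 4. *Prtn3* was between 23.5 and 66.5 CPM against 169 to 283 CPM, and *Pirb* between 0.89 and 2.84 CPM against 10.5 to 12.2 CPM. All 3 genes had every URE library below every WT library.

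Some dendritic cell genes and some genes of antigen presentation on class II molecules fell, whereas those of class I were not called. Of 20 dendritic cell genes tested, 7 fell, 13 were not called and 0 rose, and without the replicate number in the model 4 fell. Of 16 class II genes, 7 fell and 0 rose, among them *Cd74*, the invariant chain, from between 135 and 386 CPM to between 42.6 and 107 CPM (log2 fold change -2.04, SE 0.21, adjusted p = 0.00106). The class II chains *H2-Eb1* (-1.82) and *H2-Aa* (-1.54) and the peptide exchange factor subunit *H2-DMb2* (-1.79) fell as well. Neither *H2-Eb1* (adjusted p = 0.234) nor *H2-Aa* (adjusted p = 0.108) was called by edgeR without the replicate number in the model, where 5 class II genes fell. *H2-Ab1* missed the threshold (-1.15, adjusted p = 0.0586), with URE replicate 2 at 171 CPM, above 2 of the 4 WT libraries. The class II transactivator gene *Ciita* had a log2 fold change of 0.17 (adjusted p = 0.752). Of 19 class I genes, 0 were called in either direction by edgeR or DESeq2, and 1 higher and 4 lower had an unadjusted p under 0.05 by edgeR. Of 8 genes of the phagocyte oxidase, which makes superoxide, 3 fell and 1 rose. The rise, *Hvcn1*, was not called by edgeR without the replicate number in the model (adjusted p = 0.142), where 2 genes fell. Without replicate 1 or 4 of either genotype 0 of these genes rose. *Ncf4* fell from 65.0 to 6.12 CPM (log2 fold change -3.61), whereas the catalytic subunit *Cybb* was between 2.29 and 6.97 CPM in URE and between 1.8 and 9.76 CPM in WT LSKs (adjusted p = 0.752).

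The interferon-stimulated list gave the highest share of called genes. It comprises the antiviral and GTPase genes that cells raise when type I or type II interferon reaches its receptor, through complexes of STAT proteins with or without IRF9. Of 46 members tested 31 fell and 0 rose, 45 had a fold change below 0 on the log2 scale, and the median was -1.05. Pairs 1 and 4 alone gave 31 falls and pairs 2 and 3 alone 8, and without the replicate number in the model 23 fell. The summed level of the list was between 2256 and 3280 CPM in URE and between 4245 and 5414 CPM in WT LSKs. By replicate pair, 46, 43, 39 and 44 of the 46 genes had a lower level in the URE library of pairs 1 to 4.

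**Figure D2:**
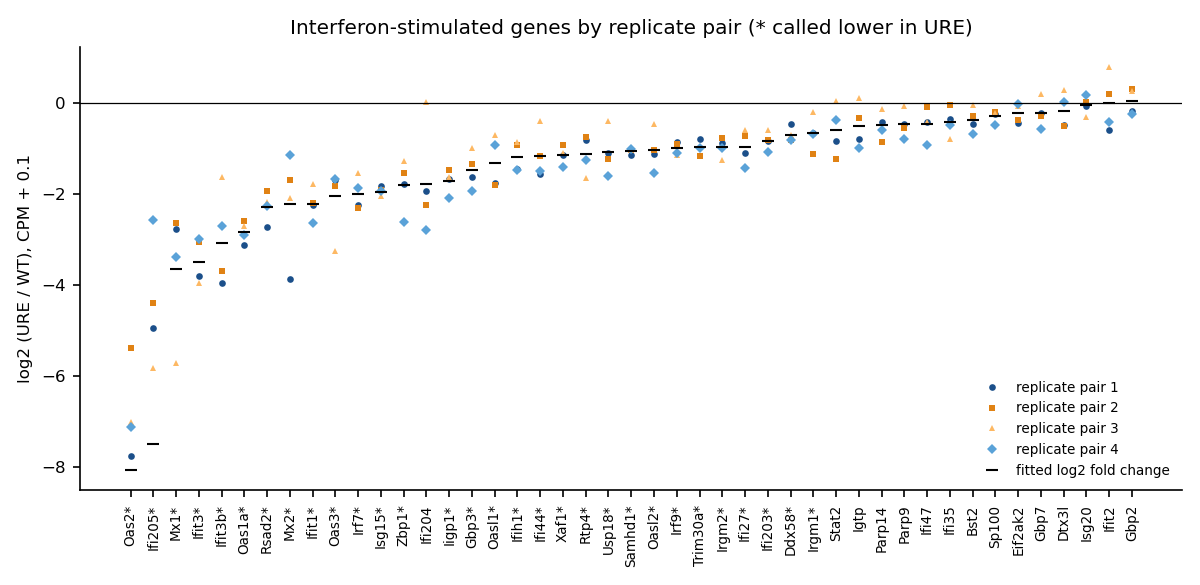
Log2 ratio of URE to WT CPM, each with 0.1 CPM added, in each replicate pair (symbols) and the fitted log2 fold change (dash) for 45 of the 46 tested interferon-stimulated genes, with an asterisk on 30 called genes. The points lie below 0 in all 4 pairs for most of the list, and of the genes shown only *Gbp2* has a fitted value above 0.

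*Oas2*, which makes the messenger that switches on RNase L, had 0 counts in URE replicates 1, 3 and 4 and 0.185 CPM in replicate 2, against 21.4, 11.8, 12.9 and 13.8 CPM in WT replicates 1 to 4. *Ifit3*, which binds foreign RNA together with its relatives, stood at 3.24, 4.53, 1.85 and 3.26 CPM against 46.8, 38.8, 30.2 and 26.8 CPM (log2 fold change -3.49, SE 0.25, adjusted p = 0.000266). *Mx1*, a GTPase that blocks viral nucleocapsids, fell from 5.60 to 0.534 CPM on average. The 3 genes were below every WT library in every URE library. *Ifi205*, also on the dendritic cell list, had 1 count in the URE group and 288 in the WT group, a ratio of 273 with a counting interval from 48.6 to 10800.

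Sensors, receptors and transcription factors of the response differed among themselves. *Irf7*, the factor that amplifies type I interferon, was at 28.1, 18.2, 15.7 and 27.3 CPM in URE and at 134, 90.4, 46.1 and 101 CPM in WT replicates 1 to 4 (log2 fold change -2.0, SE 0.17, adjusted p = 0.000532). *Irf9* fell by 1.0 on the log2 scale, and *Stat2* (-0.61, adjusted p = 0.135) and *Irf1* (-0.27, adjusted p = 0.375) were not called. Of the receptor chains, *Ifnar2* fell from between 101 and 133 CPM to between 62.0 and 66.0 CPM (-0.86, adjusted p = 0.00532) and *Ifngr2* fell by 1.60, whereas *Ifnar1* (-0.09, adjusted p = 0.777) and *Ifngr1* (0.39, adjusted p = 0.115) were not called. The RNA sensors *Ifih1* (-1.18) and *Ddx58* (-0.71), which encode MDA5 and RIG-I, fell. *Ddx58* was not called by edgeR without the replicate number in the model (adjusted p = 0.0629) or with pairs 1 and 4 alone (adjusted p = 0.0722). With pairs 2 and 3 alone neither *Ddx58* nor *Ifih1* was called (adjusted p = 0.241 and 0.161).

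The interferon-stimulated response element, searched as GAAA and GAAAC with any 2 bases between them on both strands of the same promoter windows, stood in 0.962% of all promoters, in 4.53% of those of underexpressed genes and in 0.721% of those of overexpressed genes. Among underexpressed members of the interferon-stimulated list, 11 of 26 promoters held it (42.3%), and the PU.1 motif stood in 0 of those 26. Over all tested members of that list, called or not, 16 of 42 promoters held the element (38.1%) and 2 held the PU.1 motif (4.76%). Matches in 3 of them are shown as examples, with the motif in capitals (in *Ifit3* and *Ifit1* as its reverse complement): *Ifit3* (chr19:34583366-34583456, plus strand, 123 bases before the start), *Ifit1* (chr19:34640763-34640853, plus strand, 86 bases before it) and the ubiquitin-like modifier gene *Isg15* (chr4:156200840-156200930, minus strand, 72 bases before it).
Ifit3: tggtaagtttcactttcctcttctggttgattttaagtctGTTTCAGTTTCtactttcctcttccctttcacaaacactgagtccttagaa
Ifit1: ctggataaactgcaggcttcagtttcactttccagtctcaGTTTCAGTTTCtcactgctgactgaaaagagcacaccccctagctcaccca
Isg15: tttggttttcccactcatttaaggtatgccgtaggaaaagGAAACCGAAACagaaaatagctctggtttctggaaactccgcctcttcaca
*Ifit1* was at 13.9, 20.7, 17.9 and 10.8 CPM in URE and between 62.3 and 95.1 CPM in WT LSKs (log2 fold change -2.23). *Isg15* was between 3.77 and 6.90 CPM against 14.7 to 26.3 CPM (-1.95). Neither gene overlapped between the groups.

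Of 32 Toll-like receptor and inflammasome genes tested 11 fell and 1 rose, and 29 of them had a fold change below 0 on the log2 scale. *Cd180*, a relative of the Toll-like receptors, was between 0 and 1.32 CPM in URE and between 13.6 and 16.1 CPM in WT LSKs (log2 fold change -5.17, SE 0.69, adjusted p = 0.00338). The peptidoglycan sensor *Nod2* (-5.15), the inflammasome sensors *Nlrc4* (-2.72), *Aim2* (-2.37) and *Nlrp1b* (-2.09), the protease *Casp1* (-1.16) and its substrate *Il18* (-1.67) fell, as did *Tlr4* (-1.47), which recognises lipopolysaccharide. *Tlr12*, a receptor for profilin of parasites, rose from 6.40 to 20.4 CPM (log2 fold change 1.58), but was not called by edgeR with pairs 1 and 4 alone (adjusted p = 0.153), with pairs 2 and 3 alone (adjusted p = 0.0746) or without replicate 1, 2 or 3 of either genotype. Of 25 NF-kB genes, the subunit gene *Rel* (-1.64) and the inhibitor genes *Nfkbie* (-1.07) and *Nfkbia* (-1.01) fell and 0 rose. Leaving out replicate 4 of either genotype left 7 falls on the Toll-like receptor and inflammasome list.

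Receptors that signal through immunoreceptor motifs moved in both directions. Of 30 Fc receptor and ITAM adaptor genes 10 fell, led by *Cd300a*, the inhibitory Fc receptor *Fcgr2b* (-5.03), *Pira2* (-4.25) and *Cd300lb* (-3.63), and 3 rose. *Cd300lb* was not called by edgeR without the replicate number or with pairs 2 and 3 alone (adjusted p = 0.0899 and 0.243). *Clec4e*, which encodes the mycobacterial glycolipid receptor Mincle, stood at 337, 399, 256 and 267 CPM in URE and at 19.7, 30.0, 48.8 and 36.0 CPM in WT replicates 1 to 4 (log2 fold change 3.28, SE 0.29, adjusted p = 0.000582), and the neighbouring *Clec4d* rose by 1.49. Of 28 chemokine and chemokine receptor genes 6 fell, among them *Ccl9* (-2.62), *Cxcl10* (-3.25) and the lymph node homing receptor *Ccr7* (-1.94), and 3 fell without WT replicate 4. *Cxcr5*, the homing receptor of B cell follicles, rose by 2.71 but reached only 0.346 to 1.97 CPM, and URE replicate 1 lay within the WT range. Neither *Cxcr5* (adjusted p = 0.13) nor *Cxcl10* (adjusted p = 0.106) was called by edgeR without the replicate number in the model, where the list of chemokines and their receptors had 0 rises, as it had without replicate 1, 3 or 4 of either genotype.

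The early lymphoid list, the programme of lymphoid-primed multipotent progenitors, had 22 tested members, of which 11 fell and 1 rose, with a median of -0.80. The early lymphoid list had 11 falls and 2 rises with pairs 1 and 4 alone, 6 and 0 with pairs 2 and 3 alone, and 8 and 0 without replicate 1 of either genotype or without the replicate number in the model. *Flt3*, the receptor that marks the lymphoid-primed progenitors, was at 394, 175, 206 and 302 CPM in URE and at 1391, 751, 423 and 864 CPM in WT replicates 1 to 4 (log2 fold change -1.62, SE 0.19, adjusted p = 0.00180), without overlap. *Dntt*, the polymerase that adds bases at antigen receptor joints, fell from between 315 and 678 CPM to between 68.3 and 239 CPM (-2.09). *Il7r*, the receptor for the main growth factor of early lymphocytes, was at 0.605, 0, 2.93 and 0.0931 CPM against 11.3, 22.9, 16.9 and 3.96 CPM (-4.64, SE 0.93, adjusted p = 0.0182). It was not called by edgeR without the replicate number or with pairs 2 and 3 alone (adjusted p = 0.0929 and 0.153). The recombinase genes *Rag1* (-5.96) and *Rag2* (-3.95) fell. The transcription factor genes *Mef2c* (-1.68), *Satb1* (-1.68) and *Bcl11a* (-0.67) fell, whereas *Ikzf1*, which encodes Ikaros, rose by 0.72 (SE 0.12, adjusted p = 0.00989) with overlapping groups, and was not called by edgeR without the replicate number in the model (adjusted p = 0.332) or with pairs 1 and 4 alone (adjusted p = 0.07).

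Of 14 B cell genes tested, 4 fell and 2 rose, against 2 and 1 without replicate 1 of either genotype or without the replicate number in the model. Without replicate 2 or 4 of either genotype 1 rose. The adaptor *Blnk* (-2.41), the kinases *Btk* (-1.63) and *Syk* (-0.80) and the receptor chain *Cd79b* (-1.19) fell, and *Cd38* (2.36, from 8.42 to 42.9 CPM) and *Cd72* (0.74) rose. *Igkc* stood at 110, 1390, 300 and 497 CPM in URE and at 196, 524, 428 and 423 CPM in WT replicates 1 to 4, and *Jchain* was highest in URE replicate 2 as well, at 408 CPM. These genes mark antibody-secreting cells, and the summed level of the plasma cell list ran from 304 to 2028 CPM in URE and from 546 to 1018 CPM in WT LSKs. Its part in the B cell results was not tested. *Sdc1*, which encodes CD138 and is also on the plasma cell list, fell from between 32.2 and 143 CPM to between 6.01 and 15.3 CPM (log2 fold change -3.14, SE 0.32, adjusted p = 0.00109). The receptors of the B cell survival factors BAFF and APRIL fell: *Tnfrsf13c* from 36.8 to 1.16 CPM (-5.13) and *Tnfrsf13b* from 174 CPM ± 16.6 to 31.2 CPM ± 16.9 (SD, n = 4; -2.61). The ligand APRIL, encoded by *Tnfsf13*, fell by 2.25 on the log2 scale.

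Of 24 T and NK cell genes tested 11 were overexpressed and 3 were underexpressed, with a median of 0.90. Pairs 1 and 4 alone gave 11 and 1, and pairs 2 and 3 alone gave 5 and 0. Without the replicate number in the model 9 rose and 2 fell. Without replicate 1 or 2 of either genotype, or without WT replicate 4, 1 of the 24 genes fell. The summed level of the list was between 1092 and 1432 CPM in URE and between 608 and 929 CPM in WT LSKs. The defining receptor genes *Cd3e* and *Cd3d* had 0 counts in all 4 URE libraries and did not pass the filter on low counts. Levels were low for several of the members that rose: *Gzmc* had 0 counts in every WT library and 1.66 to 2.41 CPM in URE LSKs, at least 15.9-fold higher against a floor of 3 counts per library, and *Prf1*, which encodes perforin, was between 1.82 and 4.01 CPM against 0.495 to 0.938 CPM. *Gata3*, the transcription factor of early T cells, stood at 109, 129, 133 and 122 CPM in URE and at 51.5, 62.2, 51.4 and 56.7 CPM in WT replicates 1 to 4 (log2 fold change 1.15, SE 0.12, adjusted p = 0.00131). *Tox* (1.15, from 81.4 to 179 CPM) and the adaptor *Lat* (0.83, from 93.8 to 163 CPM) rose without overlap between the groups, as did *Cd7* (2.25). *Thy1* (-4.62), *Cd5* (-3.70) and the kinase *Lck* (-0.83) fell. Neither *Lat* (adjusted p = 0.0555) nor *Lck* (adjusted p = 0.076) was called by edgeR without the replicate number in the model. Pairs 2 and 3 alone called neither *Lat* nor *Lck* (adjusted p = 0.417 and 0.154), and pairs 1 and 4 alone did not call *Lck* (adjusted p = 0.125).

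Of 34 genes of T cell receptor proximal signalling 9 rose and 6 fell. The rises included *Zap70* (1.93), the kinase that docks on phosphorylated ITAMs, and the adaptor *Dok2* (1.34, from 116 CPM ± 15 to 308 CPM ± 113; SD, n = 4). The falls were *Btk*, *Lck*, *Syk*, *Skap2* (-0.67), *Prkcd* (-0.65) and *Ptprc* (-1.08), the phosphatase CD45 of all white blood cells. Without the replicate number in the model 5 rose and 2 fell, and *Zap70* was not called by edgeR (adjusted p = 0.0812). With pairs 1 and 4 alone or pairs 2 and 3 alone *Zap70* was not called either (adjusted p = 0.155 and 0.203). Without URE replicate 1 the list had 0 falls by edgeR, without WT replicate 1 it had 1, without WT replicate 2 it had 3, and without replicate 4 of either genotype it had 2.

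Genes of neutrophil granules moved in both directions. Of 20 primary granule genes tested 5 rose and 6 fell. Without the replicate number in the model 2 rose and 4 fell, and with pairs 2 and 3 alone 0 rose and 3 fell. The elastase gene *Elane* stood at 105, 154, 151 and 144 CPM in URE and at 44.2, 40.3, 89.6 and 75.8 CPM in WT replicates 1 to 4 (log2 fold change 1.21, SE 0.20, adjusted p = 0.00806). Its neighbour in the same protease cluster, *Prtn3* (-2.57), fell, as did *Prss57* (-2.39), and *Mpo*, the peroxidase of these granules, was between 578 and 1258 CPM in URE and between 885 and 1459 CPM in WT LSKs (adjusted p = 0.309). *Plac8* showed the largest fall of the list, from 295, 630, 560 and 457 CPM in WT to 8.64, 70.3, 41.2 and 15.9 CPM in URE replicates 1 to 4 (-4.20, SE 0.34, adjusted p = 0.000452). Haptoglobin *Hp* (2.06) and cathepsin G *Ctsg* (1.37) rose. *Ctsg* was not called by edgeR without the replicate number in the model (adjusted p = 0.142). With pairs 1 and 4 alone or pairs 2 and 3 alone it was not called either (adjusted p = 0.0694 and 0.0828). *Prss57* shares 1157 exonic bases with *Fstl3*. Without URE replicate 1 the list had 2 rises, and without WT replicate 1 it had 3.

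Of 20 genes of late neutrophils 6 rose and 2 fell, with a median of 0.48. *Ngp*, a protein of secondary granules, was at 214, 163, 113 and 136 CPM in URE and at 35.1, 51.9, 20.4 and 13.4 CPM in WT replicates 1 to 4 (log2 fold change 2.51, SE 0.26, adjusted p = 0.00114), and *Cd177* rose from 2.93 to 15.2 CPM (2.52). *Camp* (1.93), *S100a9* (0.93) and *S100a8* (0.85) rose with overlapping groups, since both genotypes of replicate 2 were high: *S100a8* stood at 81.2 CPM in URE and 57.9 CPM in WT replicate 2 and between 11.2 and 52.8 CPM in the others. Lactoferrin *Ltf* (0.42, adjusted p = 0.589) and the receptor gene *Csf3r* (0.07, adjusted p = 0.791) were not called. The late neutrophil list had 2 rises and 0 falls by edgeR without the replicate number in the model, 3 and 0 with pairs 1 and 4 alone, 2 and 1 with pairs 2 and 3 alone, 4 and 0 without replicate 1 of either genotype, and 3 and 1 without replicate 4 of either. DESeq2 called 8 and 3. The lineage stain of the sort includes Gr1, which mature neutrophils carry.

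**Figure D3:**
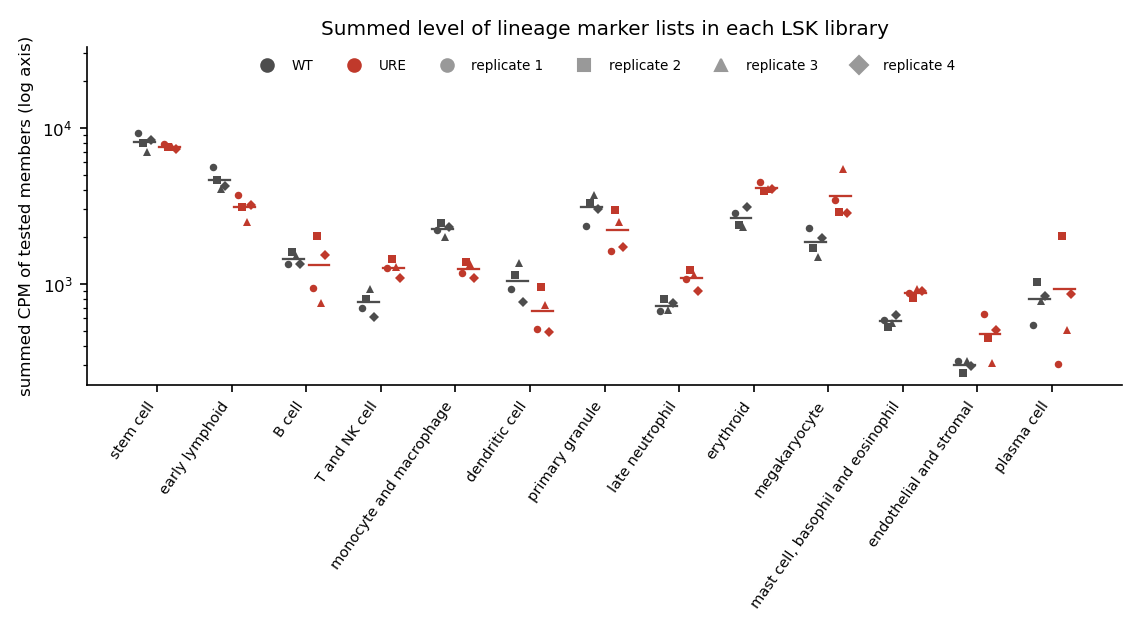
Summed CPM of the tested members of 13 marker lists in each LSK library on a log axis, with grey WT and red URE points, a shape for each replicate number and a bar at the mean of each group. URE libraries lie below all WT libraries for the monocyte and macrophage and the early lymphoid lists and above all of them for the T and NK cell, late neutrophil, erythroid, megakaryocyte and mast cell lists, and the plasma cell sum is highest in URE replicate 2.

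Of 27 megakaryocyte genes tested 4 rose and 1 fell, with a median of 0.49, and the summed level was 3447, 2882, 5452 and 2838 CPM in URE and between 1488 and 2262 CPM in WT LSKs. *Mmrn1*, the platelet protein multimerin, made up the largest share of it, at 1028, 1060, 1594 and 820 CPM against 255, 291, 290 and 265 CPM in WT replicates 1 to 4 (log2 fold change 1.99, SE 0.17, adjusted p = 0.000471). The thrombin receptor gene *F2r* (2.08, from 65.9 to 275 CPM), *Rab27b* (2.07), which moves platelet granules, and *Itga2b* (1.71, from 41.7 to 153 CPM), which encodes CD41, rose as well, and the groups did not overlap for any of the 4. URE replicate 3 stood apart for late markers: *Pf4* was at 86.0 CPM there and between 2.84 and 8.55 CPM in the other URE libraries, below the 9.99 to 18.9 CPM of WT LSKs, and *Gp1ba* and *Vwf* were at 77.2 and 71.1 CPM in that library. Neither *Pf4* (-0.74, adjusted p = 0.644) nor *Gp1ba* (1.68, adjusted p = 0.115) was called. Without URE replicate 3, or WT replicate 3, the list had 5 rises and 4 falls, with medians of 0.30 and 0.31. The median of the megakaryocyte list was 1.88 without the replicate number in the model, 1.83 with pairs 2 and 3 alone and 0.18 with pairs 1 and 4 alone.

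Among 29 erythroid genes the nuclear factor *Hemgn* (1.44), the repressor *Gfi1b* (1.28, from 45.8 to 114 CPM), carbonic anhydrase *Car2* (0.73) and *Nfe2* (0.61) rose, each without overlap between the groups. The globin gene *Hbb-bt* (-4.48), the Rh-associated glycoprotein gene *Rhag* (-2.83) and *Car1* (-1.25) fell. Without the replicate number in the model neither *Car1* (adjusted p = 0.126) nor *Car2* (adjusted p = 0.0617) was called by edgeR. *Car1* was also not called by edgeR with the scaling of DESeq2 or with pairs 2 and 3 alone (adjusted p = 0.0574 and 0.661). *Gata1* (-0.58, adjusted p = 0.443), *Klf1* (-0.61, adjusted p = 0.248) and *Epor* (0.56, adjusted p = 0.443) were not called. The erythroid list had 2 rises and 2 falls without replicate 1 of either genotype, 4 and 5 without replicate 3 of either genotype, and 3 and 1 without WT replicate 4. *Car2* alone averaged 2569 CPM in URE LSKs, of a summed level of the list between 3928 and 4470 CPM. Among 20 genes of mast cells, basophils and eosinophils, the mast cell carboxypeptidase *Cpa3* was at 69.1, 92.9, 164 and 72.4 CPM in URE and at 16.6, 29.2, 44.1 and 17.3 CPM in WT replicates 1 to 4 (log2 fold change 1.92, SE 0.14, adjusted p = 0.000284), and the basophil protease *Mcpt8* rose by 2.08. *Mitf* (-1.89), *Siglecf* (-2.43) and *Csf2rb2* (-2.94) fell, so that 3 rose and 3 fell. Without the replicate number in the model these 3 falls were not called by edgeR (adjusted p = 0.06, 0.0746 and 0.0563), and without WT replicate 1 there was 1 fall. The median of this list was -0.49 and 14 of its 20 genes had a fold change below 0, although its summed level was higher in URE. That median was -0.31 without replicate 3 and -0.32 without replicate 2 of either genotype, -0.24 without the replicate number in the model and -0.06 with pairs 1 and 4 alone.

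Of 42 stem cell genes 34 were not called, 2 rose and 6 fell (4.76% and 14.3%, beside 3.83% and 5.62% of all genes tested), and the median was -0.13. *Hlf* (0.25, adjusted p = 0.463), *Mecom* (-0.14, adjusted p = 0.736), *Procr* (0.10, adjusted p = 0.738) and *Fgd5* (0.63, adjusted p = 0.259), which mark the most primitive cells, were among those not called. *Cd34*, which rises as stem cells become progenitors in the mouse, was at 675, 863, 450 and 548 CPM in URE and at 1660, 1636, 1466 and 1515 CPM in WT replicates 1 to 4 (log2 fold change -1.35, SE 0.16, adjusted p = 0.00224). The angiopoietin receptor gene *Tek* (-2.31), the signalling inhibitor gene *Socs2* (-2.21) and *Trim47* (-1.47) fell. The chromatin protein gene *Hmga2*, high in fetal stem cells, was at 64.5, 30.9, 30.0 and 75.0 CPM in URE and between 8.19 and 18.1 CPM in WT LSKs (1.90, SE 0.33, adjusted p = 0.00938), and *Eya2* rose by 0.88. With pairs 1 and 4 alone 3 rose and 12 fell, and with pairs 2 and 3 alone 0 rose and 1 fell. Without the replicate number in the model 2 rose and 3 fell, and *Socs2* was not called by edgeR (adjusted p = 0.0548). The stem cell median was -0.29 without replicate 3 of either genotype, -0.04 without URE replicate 1 or 4 and -0.05 without WT replicate 1 or 4, and 4 rose without replicate 4 of either.

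Among 355 transcription factor genes tested 23 rose and 31 fell (6.48% and 8.73%), beside 3.83% and 5.62% of all genes tested, and the median was -0.07. *Tfec*, a relative of MITF expressed in macrophages, was at 0.734, 0.334, 0.615 and 1.02 CPM in URE and between 19.4 and 28.5 CPM in WT LSKs (log2 fold change -5.23, SE 0.34, adjusted p = 0.000161). The interferon regulatory factors *Irf5* (-3.37, from 29.7 to 2.71 CPM), *Irf8* and *Irf7* fell. *Sox6* stood at 4.75, 1.82, 7.29 and 3.63 CPM against 26.4, 24.3, 30.8 and 31.2 CPM (-2.83, SE 0.30, adjusted p = 0.00131). The nuclear receptor gene *Nr0b2* was at 0 in 3 of 4 URE libraries and between 3.68 and 6.29 CPM in WT LSKs. *Creb3l3* and *Mycl* had 1 count each in the URE group and 162 and 67 in the WT group. Without WT replicate 1 the list had 13 rises and 18 falls, without URE replicate 1 it had 13 and 20, without URE replicate 4 it had 13 rises, and without WT replicate 4 it had 15 rises and 20 falls.

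Of the factors that rose, *Maf* stood at 69.99, 70.9, 50.6 and 46.6 CPM in URE and 5.38, 9.01, 4.87 and 2.97 CPM in WT replicates 1 to 4 (log2 fold change 3.50, SE 0.21, adjusted p = 0.000153). It encodes c-Maf, a basic leucine zipper factor of lymphocytes and macrophages. *Etv4*, an ETS factor downstream of growth factor signals, rose by 5.26, but its level followed the replicate sets, at 17.5 and 21.6 CPM in URE replicates 1 and 4 and at 1.08 and 0.473 CPM in replicates 2 and 3. *Lef1* (3.59), *Bhlhe41* (3.64), *Tbx19* (3.40) and *Ldb2* (2.66) rose from levels under 1 CPM in every WT library. *Runx1t1* rose by 1.28 (from 3.29 to 7.86 CPM), while the RUNX genes were not called: *Runx1* had a log2 fold change of -0.67 (SE 0.18, adjusted p = 0.0543) with every URE library below every WT library, *Runx2* had 0.50 (adjusted p = 0.136) and *Runx3* -0.20 (adjusted p = 0.611). Other ETS genes read *Ets1* at -1.34 (adjusted p = 0.0291, and 0.0776 by edgeR without the replicate number in the model), *Spic* at -1.26 (adjusted p = 0.0116, and 0.106 and 0.0995 with either set of pairs alone) and *Fli1* at 0.04 (adjusted p = 0.867). *Cebpa* had -1.59 (SE 0.67, adjusted p = 0.207).

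**Figure D4:**
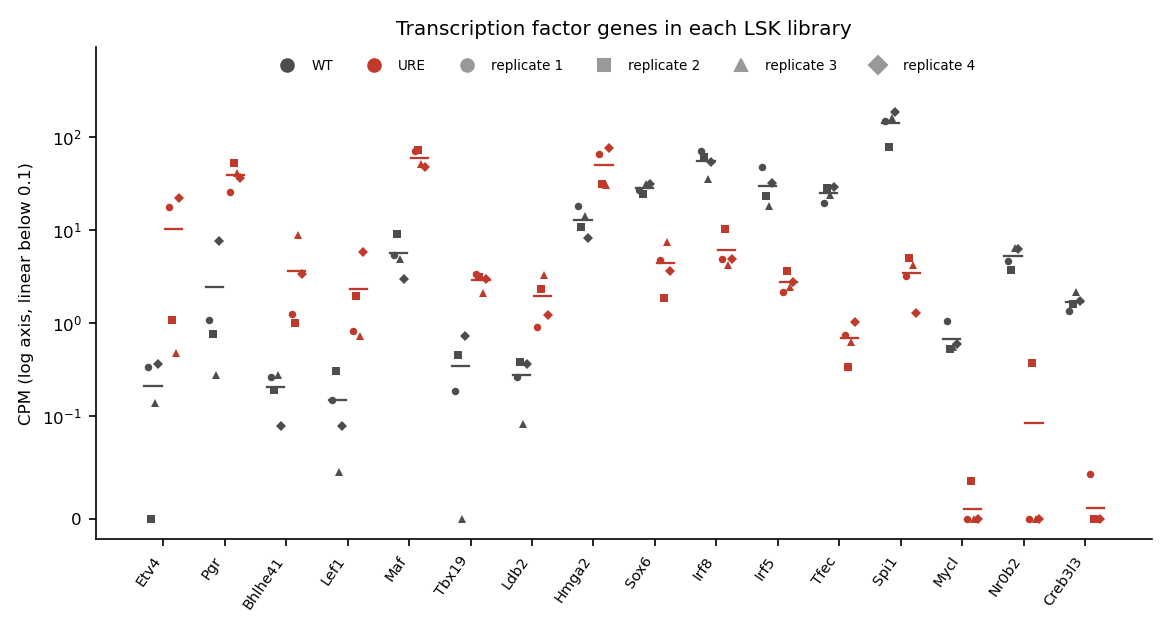
CPM of the 8 called transcription factor genes with the largest rises (left) and the 8 with the largest falls (right) in each LSK library, on an axis that is logarithmic above 0.1 CPM and linear below, with a bar at the mean of each group. The 4 URE libraries lie on one side of the 4 WT libraries for each of the 16 genes, and *Etv4* is higher in URE replicates 1 and 4 than in URE replicates 2 and 3.

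Of 57 cytokine and growth factor receptor genes tested 13 fell and 4 rose (22.8% and 7.02%, beside 5.62% and 3.83% of all genes tested), against 11 falls and 0 rises without the replicate number in the model and 11 falls and 5 rises with pairs 1 and 4 alone, and 3 falls and 0 rises with pairs 2 and 3 alone. Leaving out replicate 1 or 4 of either genotype left 8 falls. *Il1r1*, the receptor for interleukin 1, was at 14, 18.2, 26.0 and 14.9 CPM in URE and at 141, 85.3, 77.5 and 116 CPM in WT replicates 1 to 4 (log2 fold change -2.52, SE 0.29, adjusted p = 0.00178). *Il6ra* fell from between 9.42 and 14.3 CPM to between 3.26 and 3.97 CPM (-1.71), *Il18r1* by 2.0 and *Lifr* by 4.36, while the chain shared by the interleukin 6 family, *Il6st*, was not called (-0.66, adjusted p = 0.0933). For GM-CSF, the alpha chain gene *Csf2ra* (-0.67, adjusted p = 0.0652) and the shared beta chain gene *Csf2rb* (-0.32, adjusted p = 0.233) were not called, and the interleukin 3 specific *Csf2rb2* fell by 2.94.

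**Figure D5:**
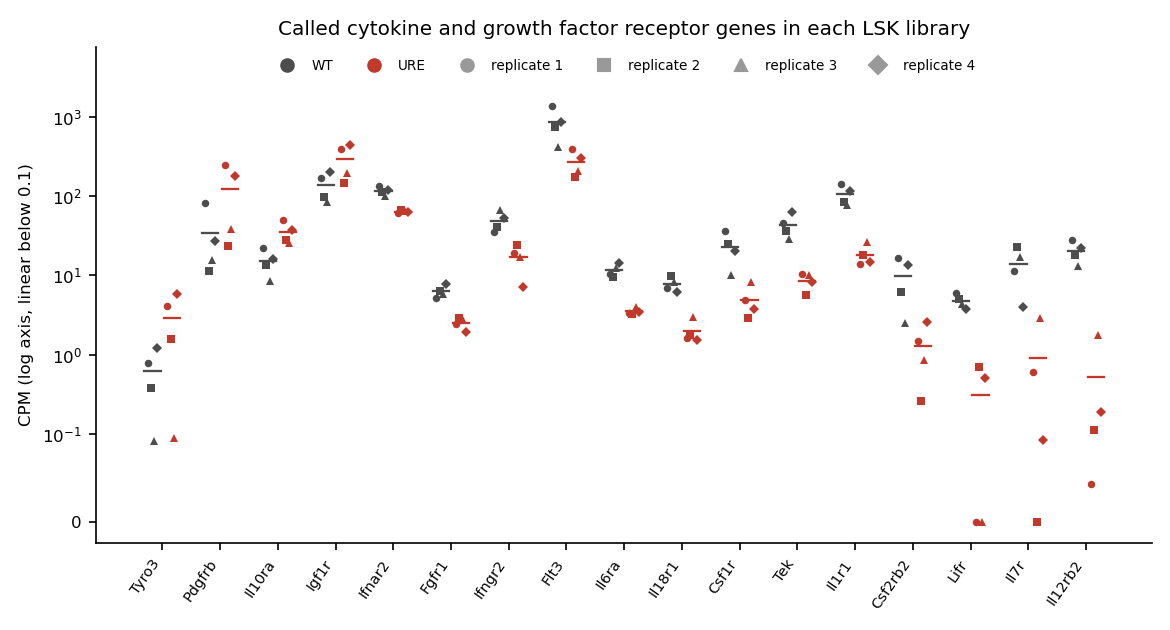
CPM of the 17 called cytokine and growth factor receptor genes in each LSK library, on an axis that is logarithmic above 0.1 CPM and linear below, with rises on the left, falls on the right and a bar at the mean of each group. *Pdgfrb* and *Igf1r* follow the replicate sets in both genotypes, with replicates 1 and 4 above replicates 2 and 3.

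The 4 receptors that rose were *Il10ra*, the receptor for the anti-inflammatory interleukin 10, from 15.1 to 35.2 CPM (log2 fold change 1.25, without overlap), *Igf1r* (1.03), *Pdgfrb* (1.66) and the TAM receptor *Tyro3* (2.0). *Igf1r*, the growth receptor for insulin-like growth factor 1, stood at 390, 148, 195 and 448 CPM in URE and at 171, 97.3, 84.8 and 204 CPM in WT replicates 1 to 4, higher within each pair. *Pdgfrb* was at 247, 23.4, 38.8 and 180 CPM against 81.6, 11.3, 15.8 and 27.5 CPM. *Pdgfrb* and the collagen gene *Col1a2* (3.32, from 1.77 to 15.2 CPM) were the 2 called genes of 12 tested for endothelial and stromal cells, and neither was called by edgeR without the replicate number in the model (adjusted p = 0.336 and 0.0576) or with pairs 2 and 3 alone (adjusted p = 0.178 and 0.0719). The defining endothelial genes *Cdh5* and *Plvap* had at most 23 and 6 counts in any library and were not tested. The summed level of that list was 638, 450, 311 and 505 CPM in URE and between 268 and 320 CPM in WT LSKs, and its part in the result was not tested.

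Of 430 genes of surface proteins tested 43 rose and 86 fell (10% and 20%), beside 3.83% and 5.62% of all genes tested. Without URE replicate 1 there were 26 rises, without WT replicate 1 there were 27, and without WT replicate 4 there were 56 falls. The sialic acid receptor *Siglecg*, an inhibitor of B cell signalling, had 1 count in the URE group and stood at 14.9, 14.3, 15.1 and 16 CPM in WT replicates 1 to 4, a ratio of 1390 with a counting interval from 250 to 55100. *Il31ra*, a receptor chain for interleukin 31, had 0 counts in every URE library and 1.42 to 3.92 CPM in WT LSKs, at least 20.1-fold lower against a floor of 3 counts per library. *Cd33* was between 0 and 0.994 CPM against 6.12 to 24.6 CPM (log2 fold change -5.77), and *Ms4a4c* and the adhesion receptor *Adgrf3* had 2 and 1 counts in the URE group. Among the rises were *Dsg2* (2.85), a desmosomal cadherin, *Cdh2* (3.14), which encodes N-cadherin, and the protocadherin *Pcdh7*, at 33.6, 39.5, 72.8 and 27.9 CPM in URE and between 2.14 and 7.12 CPM in WT LSKs (3.52, SE 0.22, adjusted p = 0.000161).

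Of 67 junction and epithelial genes 6 rose and 8 fell (8.96% and 11.9%, beside 3.83% and 5.62% of all genes tested): the rises were *Prkcz*, *Dsc2*, *Tjp1*, *Pcdh7*, *Cdh2* and *Dsg2*, and the falls included the protease inhibitor *Spint1* (-5.34) and the keratin *Krt7* (-5.30). Of 38 axon guidance genes 6 rose (15.8%), among them *Sema3e* (5.03) and its co-receptor *Nrp1* (2.50), and 7 fell (18.4%), among them *Ephb2* (-4.62) and *Plxnd1* (-2.07), the receptor of SEMA3E. *Sema3e* was between 2.07 and 4.35 CPM in URE and at most 0.15 CPM in any WT library. Of 71 channel and purinergic receptor genes 3 rose (4.23%, near the share of all genes) and 10 fell (14.1%). *P2ry14*, the receptor for UDP-glucose that marks stem and progenitor cells, stood at 12.1, 31.6, 22.9 and 14.8 CPM in URE and at 141, 147, 189 and 145 CPM in WT replicates 1 to 4 (log2 fold change -3.02, SE 0.23, adjusted p = 0.000372), and *P2ry13* fell by 2.85. Leaving out replicate 1, 2 or 4 of either genotype left 4 falls and 2 to 4 rises of guidance genes and 5 or 6 falls of channel genes, and leaving out replicate 1 or 4 left 4 falls of junction genes.

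Of 27 genes of ERK signalling and immediate early response 4 rose and 2 fell, and the 4 were *Spry4*, *Dusp4*, *Dusp6* and *Spred1* (0.63), each of which encodes an inhibitor of the pathway. Without the replicate number in the model 2 rose and 1 fell, and neither *Dusp6* (adjusted p = 0.139) nor *Spred1* (adjusted p = 0.216) was called by edgeR. The list of ERK and immediate early genes had 1 rise without URE replicate 1, 2 rises without WT replicate 1 or replicate 4 of either genotype, 2 rises and 4 falls without URE replicate 3, and 2 rises and 5 falls without WT replicate 3. *Spry4* was at 15.6, 9.27, 17.7 and 19.9 CPM in URE and at 0.996, 1.05, 0.459 and 0.675 CPM in WT replicates 1 to 4 (log2 fold change 4.26, SE 0.41, adjusted p = 0.000789). *Dusp6* was between 125 and 146 CPM against 60.1 to 125 CPM (0.78), and *Dusp4*, a phosphatase of the same family, rose by 3.06. Of 29 JAK-STAT and SOCS genes, the kinase *Pim2* (1.38, from 61.6 to 153 CPM) and the feedback inhibitor *Socs3* (1.30) rose, and 3 fell, among them *Socs2* and the phosphatase gene *Ptpn6*, which encodes SHP-1. The JAK-STAT and SOCS list had 1 rise without replicate 1 of either genotype, URE replicate 2 or the replicate number in the model, and 3 rises without replicate 4 of either. Neither *Socs3* (adjusted p = 0.618) nor *Socs2* (adjusted p = 0.0548) was called by edgeR without the replicate number. *Ptpn6* stood at 149, 181, 132 and 143 CPM against 380, 404, 319 and 357 CPM (-1.28, SE 0.11, adjusted p = 0.000561). Of 21 Notch genes 0 were called by edgeR (5 higher and 0 lower at an unadjusted p under 0.05), while DESeq2 called 3 as higher, and 16 had a fold change above 0 on the log2 scale. With pairs 1 and 4 alone, or without replicate 2 of either genotype, edgeR called 2 Notch genes as higher.

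Of 46 lysosomal hydrolases 7 fell and 1 rose (15.2% and 2.17%, beside 5.62% and 3.83% of all genes tested), and 2 fell and 0 rose with pairs 2 and 3 alone. Without replicate 1 or 2 of either genotype 4 of the lysosomal hydrolases fell, and 11 fell without replicate 3 of either. Of 32 glycolysis genes 5 fell and 0 rose: *Fbp1*, the hexokinase *Hk3* (-2.24, from 85.4 to 17.9 CPM), the lactate dehydrogenase subunit *Ldhb* (-1.48, from 241 to 87.5 CPM), *Pfkfb4* (-1.03) and the inhibitory kinase *Pdk3* (-0.80). Of 34 cholesterol genes 6 fell and 1 rose. *Srebf2*, the master regulator of sterol synthesis, fell by 1.52 (SE 0.24, adjusted p = 0.00653) but ranged from 26.8 to 178 CPM in URE and from 113 to 553 CPM in WT LSKs, so that the groups overlapped while the fall held within each pair. *Npc1*, which exports cholesterol from lysosomes, fell from between 53.8 and 87.8 CPM to between 23.7 and 34.7 CPM (-1.32). The storage enzyme gene *Soat1* rose by 0.65. Without the replicate number in the model 2 cholesterol genes fell and 0 rose by edgeR, and leaving out replicate 1 or 4 of either genotype left 3 falls on each of the cholesterol and glycolysis lists.

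Of 54 S phase genes tested 50 had a fold change above 0 on the log2 scale, with a median of 0.26, but only *Mcm2*, a subunit of the replicative helicase, was called (0.62, adjusted p = 0.0439), and it was not called by edgeR without the replicate number in the model (adjusted p = 0.617). The S phase median was 0.16, with 42 of 54 genes above 0, without replicate 2 of either genotype, and the list had 0 calls by edgeR without replicate 1 or 4 of either, 4 without URE replicate 3 and 5 without WT replicate 3. Of 60 mitosis genes *Kif23* was the 1 gene called (-0.62), and the median was 0.01. *Kif23* was not called by edgeR without the replicate number in the model (adjusted p = 0.0837). With pairs 1 and 4 alone or pairs 2 and 3 alone it was not called either (adjusted p = 0.193 and 0.211). The mitosis median was 0.24, with 54 of 60 genes above 0 and 2 rises, without URE replicate 3 and 0.25 without WT replicate 3, and it was -0.11, with 18 of 60 above 0, without replicate 2 of either genotype. All 82 tested genes of cytosolic ribosomal proteins had a fold change below 0, with a median of -0.32, and 1 was called. Their summed level was 28539, 62872, 54285 and 27642 CPM in URE and 34237, 60387, 59179 and 51539 CPM in WT replicates 1 to 4, so that URE replicates 1 and 4 were the lowest and the groups overlapped. Without replicate 4 of either genotype the median of the cytosolic ribosomal proteins was -0.14 with 71 of 82 genes below 0, and with pairs 2 and 3 alone it was -0.07 with 58 below 0. With pairs 1 and 4 alone 8 of these genes fell. By edgeR, 0 of 45 proteasome genes and 0 of 78 mitochondrial ribosomal protein genes were called, as by DESeq2, with 4 genes of each list at an unadjusted p under 0.05 by edgeR. Of 28 genes of the unfolded protein response 3 rose, including *Trib3* (1.49, from 23.6 to 64.8 CPM) and *Dnajc3* (0.94, from 147 to 285 CPM).

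Regulators of cell death and of chromatin gave single genes rather than groups. Of 34 genes of the BCL2 family and caspases 2 rose and 3 fell (5.88% and 8.82%, beside 3.83% and 5.62% of all genes tested), against 1 and 1 without replicate 4 of either genotype and 1 and 3 without replicate 1 of either. *Bok*, a pore former related to BAX, was at 41.3, 19, 22.3 and 39.2 CPM in URE and between 8.10 and 8.30 CPM in WT LSKs (log2 fold change 1.81, SE 0.25, adjusted p = 0.00378), and *Apaf1*, the scaffold of the apoptosome, rose by 0.68 but was not called by edgeR without the replicate number in the model (adjusted p = 0.321). *Bcl2a1d* had 0 counts in every URE library and 0.553 to 1.52 CPM in WT LSKs, at least 7.84-fold lower against a floor of 3 counts per library. Of 60 histone and DNA methylation enzymes *Tet1* (-1.12, from 98.5 to 45.6 CPM), which oxidises methylated cytosine, and the histone demethylase *Kdm5b* (-0.98) fell and 0 rose. Of 16 imprinted growth regulators *Phlda2* fell from 9.37 to 0.305 CPM (-5.10) and *Igf2r*, which clears insulin-like growth factor 2, from between 15.4 and 60.4 CPM to between 6.57 and 10.3 CPM (-2.0). *Slc22a3*, which lies near *Igf2r*, rose by 0.70. *Slc22a3* was not called by edgeR without the replicate number or with pairs 2 and 3 alone (adjusted p = 0.216 and 0.634).

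Some named genes share exonic bases with a neighbour in the annotation, and without strand their reads cannot be told apart: *Il12rb2* with *Serbp1* (1519 bases), *Itgam* with *Gm49368* (3450), *Csf1r* with *Hmgxb3* (873), *Cd72* with *Tesk1* (1423), *Lef1* with *Gm43352* (1208), *Pcdh7* with *4932441J04Rik* (2235), *Bhlhe41* with *Gm43909* (1280) and *Ms4a6c* with *BE692007* (1088). Near-identical relatives such as *Pira2* and *Pirb*, *H2-DMb2*, *Bcl2a1d* and the globin genes also share reads that the quantification divides among them.

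The genes named are the largest changes overall and in each list, with the members that define a cell type. Outside that rule, these were chosen after their values were seen, for their roles: *Aim2*, *Bcl11a*, *Calcrl*, *Ccr7*, *Cd33*, *Cd7*, *Cebpa*, *Ciita*, *Csf2ra*, *Csf2rb*, *Csf3r*, *Cybb*, *Ddx58*, *Dok2*, *Ets1*, *F13a1*, *Fli1*, *Flt3*, *Gata3*, *Gbp2*, *Gm13778*, *H2-Aa*, *H2-Ab1*, *Ifih1*, *Ifit1*, *Ifnar1*, *Ifnar2*, *Ifngr1*, *Ifngr2*, *Il18*, *Il6ra*, *Il6st*, *Irf1*, *Irf7*, *Irf9*, *Isg15*, *Lat*, *Mef2c*, *Mpeg1*, *Nlrc4*, *Nlrp1b*, *Pdk3*, *Pirb*, *Prf1*, *Prkcd*, *Psmc3*, *Rapsn*, *Runx1*, *Runx1t1*, *Runx2*, *Runx3*, *Satb1*, *Skap2*, *Slc39a13*, *Smtnl1*, *Spic*, *Stat2*, *Tlr4*, *Tox*, *Tyrobp*, *Ube2l6* and *Vwf*.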

How the data were processed

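Low-input libraries without strand or molecular identifiers used at most 10 ng of RNA of each mouse. Per the study, Salmon quantified the reads (GRCm38 in the submitters' notes) and tximport summed them per gene. The deposited values are the authors' estimated counts, not normalized, for 54347 gene rows, and were rounded to whole numbers. Reads shared between similar genes are divided by estimation, and without molecular identifiers counts include copies made by PCR. Intervals and floors cover counting error only. Symbols came with the table, and coordinates, biotypes and shared exons came from GENCODE release M21, which held 54094 of the identifiers.

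The 4 URE and 4 WT LSK libraries were compared with edgeR 4.0.16 (TMM scaling, filterByExpr, quasi-likelihood test) in R 4.3.3, with replicate number and genotype in the model and Benjamini-Hochberg adjustment over 15154 genes. The study's own test was DESeq2. The replicate number was kept because URE and WT libraries of the same number deviated together from their group means (r = 0.605, 0.454, 0.368 and 0.301 for replicates 1 to 4). Unlike numbers within the sets 1 and 4 or 2 and 3 did so too (r between 0.182 and 0.428, with URE 4 closer to WT 1 than to WT 4), and the labels do not say what the number stands for. No replicates of a group agreed within sampling noise. In data simulated for this comparison, 77 of 100 genes changed by 1 log2 unit and 100 of 100 changed by 2 were recovered, with 7 false calls. In that simulation only genes with higher counts were changed, and all genes had the same dispersion. Both genotypes had exactly the same replicate effect, which the real pairs do not. The figures hold for that setting and are not error rates of the real comparison. Lists are given by counts over members that passed the filter, several with their median, and stand against the shares and the median of all genes tested. The 56 gene lists, the comparison and the named genes were chosen with earlier results of these data known. Named genes were the 15 largest rises and falls (mean of at least 3 log2 CPM, no overlap between genotypes), the 4 largest in each direction per list (8 for transcription factors, surface proteins and cytokine receptors) and defining members. Promoter windows of RefSeq (GRCm38.p6) were matched by symbol. Alternatives were DESeq2 1.42.0, other scalings and filters, no replicate number, pairs 1 and 4 or 2 and 3 alone, and leaving out each library. Some members of the lists are counted but not reported by name here.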

Additional observations from a re-analysis of the deposited data

Results flagged for a closer look

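Of 560 groups of 4 libraries examined, 45 held 1 library far from the other 3 by Dixon's ratio at the 95% level (8.04%). Chance gives about 1 in 20 for normally distributed values. The ratio was taken on CPM, where any count is flagged if the other 3 libraries are at 0, so that the 2 shares do not compare directly. URE replicate 2, the library with the highest total count (29128858), held 17 of these. URE replicate 3 held 11 and URE replicate 4 held 0 by this ratio.

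In URE replicate 3 genes of platelets and red cells were high: *Pf4* was at 86.0 CPM and at most 8.55 CPM in the other URE libraries, *Gp1ba* at 77.2 against at most 14.9 CPM, *Vwf* at 71.1 against at most 14.8 CPM, *Hba-a1* at 40 against at most 7.27 CPM and *Hbb-bs* at 37.6 against at most 6.57 CPM. The same library stood above the others for *Pde4d* (583 CPM), *Tet1* (57.9 CPM), *Itgam* (4.16 CPM), *Il18r1* (2.98 CPM) and *Il12rb2* (1.75 CPM), and had *Spint1* at 0 CPM.

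In URE replicate 2 myeloid and B cell genes were higher than in the other URE libraries, though below every WT library: *Tnfrsf13b* was at 56.5 CPM against at most 24.2 CPM, *Irf8* at 10.1 against at most 4.89 CPM, *H2-DMb2* at 6.38 against at most 3.24 CPM and *F13a1* at 6.01 against at most 1.42 CPM. *Cybb* was at 6.97 CPM there and *Epha7* at 1.30 CPM, while *Gem* (334 CPM) and *Stat2* (20.3 CPM) were lower than in the other URE libraries. Genes that were at or near 0 elsewhere in URE had a few counts in it, namely *Rnase6* (0.890 CPM), *Nr0b2* (0.371 CPM), *Oas2* (0.185 CPM), *AC174780.1* (0.111 CPM), *Ms4a4c* (0.0742 CPM) and, at 1 count or 0.0371 CPM each, *Siglecg*, *Ifi205*, *Adgrf3* and *Mycl*.

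URE replicate 1 stood apart for the Y-linked *Ddx3y* (97.3 CPM) and for *Car2* (2888 CPM), *Sulf2* (131 CPM), *Rag1* (0.173 CPM) and *Creb3l3* (0.0432 CPM). Among WT libraries, replicate 4 was high in *Xist* (114 CPM), *Gata1* (15.3 CPM) and *Pgr* (7.56 CPM). Replicate 3 was high in *P2ry14* (189 CPM), *Clec4d* (8.41 CPM) and *Lilrb4a* (2.66 CPM) and low in *Car1* (20.6 CPM). Replicate 2 was high in *Ifit1* (95.1 CPM) and *Prkcz* (1.76 CPM), and replicate 1 was high in *Mycl* (1.03 CPM) and low in *Siglecf* (3.98 CPM) and *Hba-a1* (1.51 CPM).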

How the results depend on the processing

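Without the replicate block that pairs same-numbered libraries, 360 genes were higher and 570 lower in URE LSKs, and 915 of the 1433 called genes were called again. DESeq2 with the replicate number in its model called 911 higher and 1221 lower. Pairs 2 and 3 alone gave 132 higher and 207 lower. Leaving out 1 library gave between 288 and 610 genes higher and between 496 and 952 lower. The other scalings and filters kept both counts within 1.5 times. The fold change of *Spi1* lay between -6.27 and -4.60 on the log2 scale in all alternatives and passed the test in each. No named gene changed direction and passed the test in the opposite one. The 340 named genes include some that the main fit did not call and that could not lose a call. Of the 340, 72 lost the call without the block, 56 with pairs 1 and 4 alone and 169 with pairs 2 and 3 alone. Leaving out 1 library cost between 37 and 90 calls (90 without URE replicate 1, 88 without WT replicate 1 and 85 without replicate 4 of either genotype), while 10 gained one under DESeq2. The cause was not tested. In the sets of pairs and in each fit that left out a library, fewer libraries entered the model. A fit that left out 1 library in effect left out its replicate pair. Genes under about 1 CPM, among them *Mycl*, *Rag1* and *Gzmc*, rest on few counts in 1 genotype.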

Other observations

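Several abundant genes that the pathway and marker lists do not hold, or hold only among surface proteins, changed. They were chosen after their values were seen. *Adgrl4*, an adhesion G protein-coupled receptor of endothelial and stem cells, stood at 108, 154, 121 and 107 CPM in URE and at 1524, 1237, 1118 and 1433 CPM in WT replicates 1 to 4 (log2 fold change -3.45, SE 0.19, adjusted p = 0.000119). *Lsp1*, an actin-binding protein of leukocytes, was between 16.9 and 51.7 CPM against 364 to 400 CPM (-3.76). *Gpx1*, which detoxifies hydrogen peroxide, fell from 1208 CPM ± 251 to 298 CPM ± 128 (SD, n = 4), and the secreted *Wfdc17* fell by 4.81 on the log2 scale. None of these genes overlapped between the groups.

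Of the abundant genes that rose, *Gem*, a small GTPase that restrains calcium channels, was at 508, 334, 482 and 498 CPM in URE and at 29.4, 44.3, 39.9 and 27.7 CPM in WT replicates 1 to 4 (log2 fold change 3.70, SE 0.23, adjusted p = 0.000161). *Pde4d*, which degrades cyclic AMP, was between 181 and 583 CPM against 23.8 to 39.6 CPM (3.01), *Fgl2* rose by 2.04, and the ubiquitin ligase gene *Nedd4* rose from 725 to 1741 CPM (1.29). Other genes had 0 counts in all URE libraries. *Kynu*, an enzyme of tryptophan breakdown, had 0 counts in the URE group and 4.32 to 8.91 CPM in WT LSKs, at least 54.7-fold lower against a floor of 3 counts per library. *Dcstamp*, which cells need to fuse into osteoclasts, was at least 17.1-fold lower by the same floor, and the muscle factor gene *Myog* at least 10.0-fold lower.

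Of 16 immunoglobulin heavy chain variable genes tested, 8 rose (beside 3.83% of all genes tested) and 0 fell, with a median log2 fold change of 1.58, and the called genes had URE means between 0.698 and 11.4 CPM. Reads of this family are shared among near-identical members. The plasma cell genes *Igkc* and *Jchain* were highest in URE replicate 2, at 1390 and 408 CPM, and their part in this result was not tested. The globin genes differed from each other: *Hbb-bt* fell, whereas *Hbb-bs* was between 2.11 and 37.6 CPM in URE and between 1.66 and 8.60 CPM in WT LSKs (log2 fold change 0.64, adjusted p = 0.689).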
